A study of Homo sapiens with 10 samples.

Results

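The genes described here are the ERBB receptor genes other than ERBB2 (EGFR, ERBB3 and ERBB4) and 7 genes for ligands of the family (NRG1, EGF, AREG, EREG, HBEGF, TGFA and BTC). They were chosen by name, as 10 of the 19962 protein-coding genes of GENCODE release 44, and the rule that defines them uses no measured value. H3K27ac, an acetylated form of histone H3 that marks active promoters and enhancers, was profiled by ChIP-seq in SKBR3 and MDA-MB-453, which are established breast cancer cell lines of the HER2 subtype. For each gene, the peaks that overlapped the gene body or the 50 kb on either side of it were taken from the 8 deposited peak lists (hg38). Each line had 2 lists from untreated cells and 2 lists from cells given TWEAK, a cytokine of the TNF family that binds the receptor Fn14. All cells were first starved for 8 h in reduced-serum medium, and TWEAK was used at 10 ng/ml for 48 h with a fresh dose at 24 h. No allele or drug other than TWEAK was named for any group, and each line comes from 1 patient's tumour cells. Each list describes a whole culture, so fewer marked cells and less mark per cell cannot be told apart. Peaks that overlapped across the 8 lists were merged into regions, and 89 of 76044 regions lay in the windows of these genes. Of the 89 regions, 11 were within 1 kb of a transcription start of the gene itself, 8 were within 1 kb of a start of a different protein-coding gene, and 0 lay in more than 1 window.

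ERBB receptors are tyrosine kinases at the cell surface that act in pairs. EGF, TGFA and AREG bind EGFR, HBEGF, EREG and BTC bind both EGFR and ERBB4, and neuregulin 1 (NRG1) binds ERBB3 and ERBB4. HER2 (ERBB2) has no known ligand of its own and signals by pairing with a ligand-bound partner, and ERBB3 has a weak kinase and signals mainly as the partner of HER2, which is why these receptors and ligands are studied in HER2 breast cancer.

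The lists held between 43684 and 51687 peaks in SKBR3 and between 36148 and 37813 in MDA-MB-453, and the second SKBR3 TWEAK list was the longest. Peaks of the ERBB windows numbered 38 and 38 in the untreated SKBR3 lists, 46 and 56 in the SKBR3 TWEAK lists, 41 and 41 in the untreated MDA-MB-453 lists, and 43 and 40 in the MDA-MB-453 TWEAK lists. All 8 lists had a peak within 1 kb of a start of ERBB2, KRT8, KRT18, KRT19, GATA3, FOXA1, SPDEF and EPCAM, which mark HER2-positive luminal epithelial cells. The leukocyte gene PTPRC, the endothelial gene PECAM1 and the basal keratin KRT14 had no such peak in any list, whereas the fibroblast collagen gene COL1A1 had one in all 8. The basal keratin KRT5 had one in 2 SKBR3 and 0 MDA-MB-453 lists, and the basal factor TP63 in 1 and 4.

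The sequences that carry the comparisons below are the middle 300 bases of regions and the 250 bases before 2 gene starts, all from hg38 and written 5′ to 3′. Region sequences are of the plus strand, and those of the promoters follow the strand of the gene. The first are regions that appeared with TWEAK in both SKBR3 replicates and were absent without it, at chr7:54986818-54987117 (30.2 kb upstream of EGFR) and chr2:70529066-70529365 (in an intron of TGFA). The next, at chr2:211395965-211396264 in an intron of ERBB4, is from the highest ranked region present in every MDA-MB-453 list and in no SKBR3 list. The last are the promoters of AREG (chr4:74444886-74445135, plus strand) and BTC (chr4:74794524-74794773, minus strand), whose peaks ranked differently in the 2 lines, from the RefSeq promoter table for GRCh38.p14. Capitals would mark a match on either strand to AP-1 (TGACTCA or TGAGTCA), AP-2 (GCCNNNGGC) or the NF-κB consensus, and these 5 sequences hold none.
EGFR, 30.2 kb upstream of the start: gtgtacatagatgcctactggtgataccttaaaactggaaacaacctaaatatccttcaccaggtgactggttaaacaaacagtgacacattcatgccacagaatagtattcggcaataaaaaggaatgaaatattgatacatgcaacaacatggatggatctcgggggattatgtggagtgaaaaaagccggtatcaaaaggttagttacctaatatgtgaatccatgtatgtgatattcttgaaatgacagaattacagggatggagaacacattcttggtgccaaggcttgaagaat
TGFA, intron: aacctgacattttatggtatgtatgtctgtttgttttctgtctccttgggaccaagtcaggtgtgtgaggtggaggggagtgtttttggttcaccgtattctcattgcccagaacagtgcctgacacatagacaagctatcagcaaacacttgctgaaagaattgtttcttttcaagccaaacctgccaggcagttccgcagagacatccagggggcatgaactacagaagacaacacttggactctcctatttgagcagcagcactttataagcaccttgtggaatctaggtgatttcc
ERBB4, intron: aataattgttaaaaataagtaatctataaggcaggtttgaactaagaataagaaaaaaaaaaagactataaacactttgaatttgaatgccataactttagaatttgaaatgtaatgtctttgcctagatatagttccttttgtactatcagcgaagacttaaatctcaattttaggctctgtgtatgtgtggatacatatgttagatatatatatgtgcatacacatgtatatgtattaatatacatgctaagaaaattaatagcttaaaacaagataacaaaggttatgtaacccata
AREG promoter: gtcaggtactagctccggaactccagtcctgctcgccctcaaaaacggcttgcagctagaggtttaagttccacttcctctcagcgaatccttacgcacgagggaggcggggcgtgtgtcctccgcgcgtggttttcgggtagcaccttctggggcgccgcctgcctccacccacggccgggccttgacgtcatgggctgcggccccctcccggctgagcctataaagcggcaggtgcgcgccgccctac
BTC promoter: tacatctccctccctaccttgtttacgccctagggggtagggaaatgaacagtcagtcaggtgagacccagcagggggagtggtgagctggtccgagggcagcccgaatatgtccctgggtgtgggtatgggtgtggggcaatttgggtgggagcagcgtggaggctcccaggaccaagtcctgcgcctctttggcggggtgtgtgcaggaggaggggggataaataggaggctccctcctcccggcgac

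Over the middle 300 bases of all 89 regions, the NF-κB motif was found in 8, AP-1 in 6 and AP-2 in 13, which is 8.99%, 6.74% and 14.6%. Among all 76044 regions the shares were 4.84%, 9.17% and 12.7%. Over 1000 bases each of these 3 differences had the opposite sign. No match of 1 motif overlapped a match of a different motif in the regions named here. The member regions specific to SKBR3 held the 3 motifs in 2, 2 and 1 of 16 cases, beside 4.81%, 10.6% and 11.9% of all SKBR3-specific regions. Those specific to MDA-MB-453 held them in 1, 0 and 0 of 18, beside 2.43%, 7.95% and 11.0% of all MDA-MB-453-specific regions. These counts are small and were not tested. The AREG and BTC promoters held none of the 3 motifs, where 5.21%, 4.20% and 19.8% of 35116 promoters of 250 bases held NF-κB, AP-1 and AP-2. A match is a description of the letters and says nothing about binding.

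The first comparison asked how the 2 lines differed in the H3K27ac landscape of these genes. EGFR and ERBB4 were marked in opposite lines. The EGFR window held 22.2 and 30.4 kb of peaks in the untreated SKBR3 lists and 27.1 and 45.9 kb in the SKBR3 TWEAK lists. In MDA-MB-453 it held 0 and 0.277 kb untreated and 0.538 and 0.769 kb with TWEAK. The groups did not overlap, and the means were 31.4 ± 10.2 kb (SD, n = 4) in SKBR3 and 0.396 ± 0.332 kb (SD, n = 4) in MDA-MB-453. ERBB4 showed the reverse, with 26.5 and 29.2 kb untreated and 28.5 and 27.8 kb with TWEAK in MDA-MB-453. The SKBR3 lists had no peak in the ERBB4 window other than 1.53 kb in the second TWEAK list, and the means were 0.382 ± 0.764 kb (SD, n = 4) and 28.0 ± 1.15 kb (SD, n = 4).

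ERBB3, the receptor that pairs with HER2, was marked in both lines. Its window held 37.8, 35.9, 37.9 and 36.2 kb in SKBR3 and 28.2, 26.1, 27.5 and 26.4 kb in MDA-MB-453, in the order untreated 1 and 2, TWEAK 1 and 2. All SKBR3 lists were higher, but within 10 kb of the gene the difference was 3.44 kb and the groups overlapped. The wide window is shared with densely packed neighbours, since 5 of its 10 regions were held by all 8 lists and lay within 1 kb of a start of RPS26, PA2G4, ESYT1, RPL41, ZC3H10 or MYL6B. On the share of its window covered by peaks, ERBB3 stood at the 93.9th percentile of 18542 genes in SKBR3 and at the 96.6th in MDA-MB-453, the highest of the 10 genes in both lines.

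Of the ligand genes, EGF, EREG and HBEGF had more covered length in SKBR3, NRG1 had more in MDA-MB-453, and AREG, TGFA and BTC overlapped between the lines. EGF held 6.32, 5.87, 6.31 and 8.44 kb in the SKBR3 lists against 0.840, 0, 0 and 0.767 kb in MDA-MB-453. EREG held 3.10, 2.64, 3.22 and 5.27 kb in SKBR3 and no peak in any MDA-MB-453 list. HBEGF held 4.10, 2.88, 8.80 and 14.0 kb against 1.34, 0.991, 1.66 and 0.933 kb. Of the MDA-MB-453 lengths, 0.984, 0.991, 0.893 and 0.933 kb lay at the start of the neighbour PFDN1. The same region held 0.428, 0.805, 0.610 and 0.911 kb in SKBR3. All SKBR3 lists were therefore above all MDA-MB-453 lists for these 3 ligands, although for HBEGF this did not hold within the gene body alone. NRG1 had no peak in any SKBR3 list and 1 region in MDA-MB-453, of 1.36, 1.40, 1.37 and 1.68 kb, in an intron 193.5 kb downstream of the gene start.

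Across the 10 genes, 5 were higher in SKBR3 and 2 higher in MDA-MB-453 with no overlap of the groups. The same held for 43.9% and 24.6% of the 18542 genes with a peak in any list, so the members' shares of 5 and 2 in 10 were close to the background. Each of the 7 genes had an exact two-sided permutation p = 0.0286, which is the smallest that 70 assignments of the lists allow, and an adjusted p = 0.0417 over all genes. The median difference, SKBR3 minus MDA-MB-453, was 2.01 kb over the members and 0.990 kb over all genes, and the SKBR3 lists were longer. For AREG, TGFA and BTC the differences were -0.098, -0.011 and 0.468 kb. BTC did separate with peaks of q under 1e-05, where the difference was 2.87 kb, and within 10 kb of the gene, where it was 2.53 kb. AREG did separate in narrower windows, higher in MDA-MB-453, with differences of -0.911 kb within 10 kb of the gene and -0.378 kb in the gene body, so that 3 genes were then higher in MDA-MB-453.

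**Figure D1:**
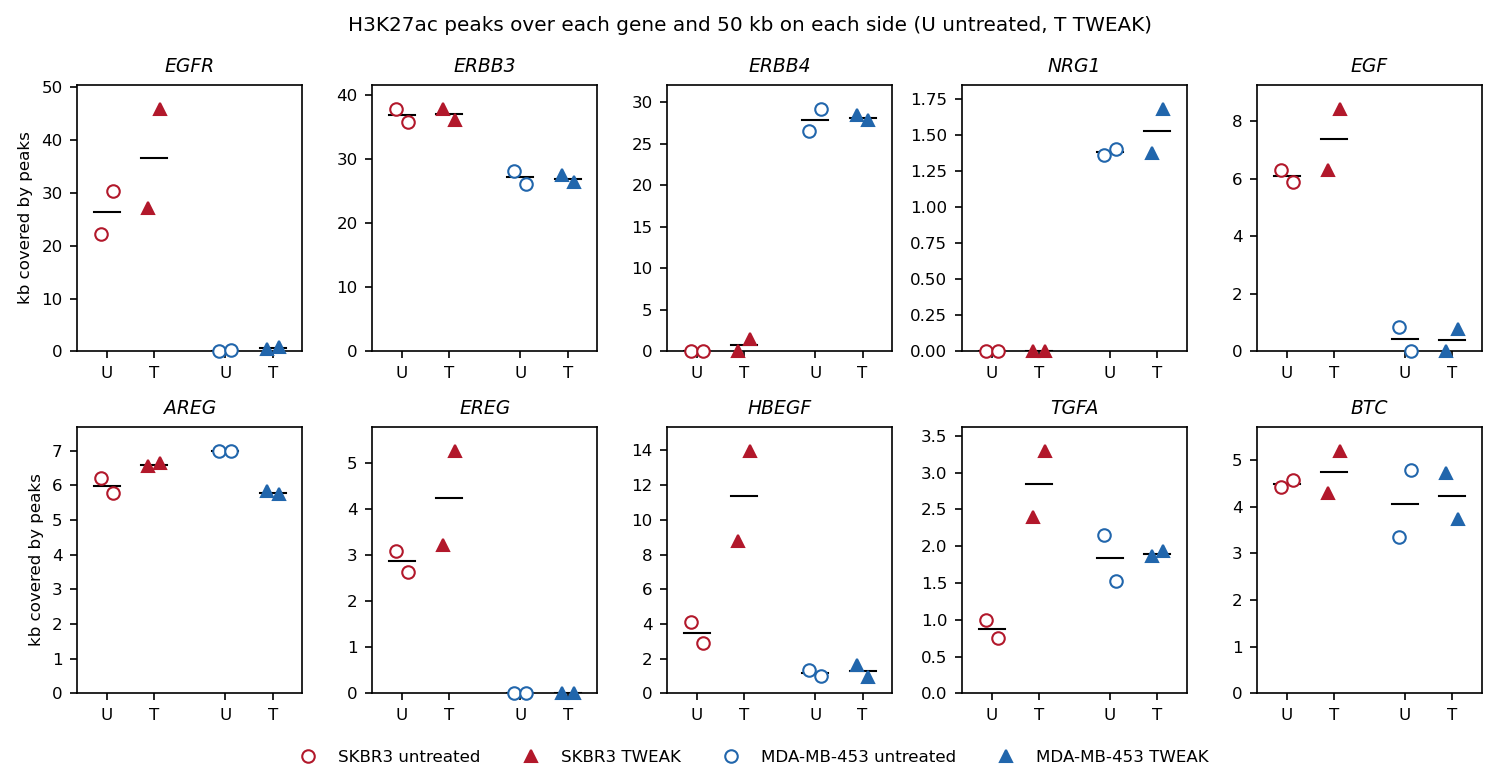
Length covered by H3K27ac peaks (kb) over each gene and 50 kb on each side, for each of the 8 lists. Points are lists, open circles untreated and triangles TWEAK, in red for SKBR3 and blue for MDA-MB-453, and bars are the means of 2 lists. EGFR and ERBB4 are marked in opposite lines, EREG has 0 kb in MDA-MB-453 and NRG1 has 0 kb in SKBR3.

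Single regions were compared next. A region was called specific to a line when all 4 lists of that line and none of the other held it. In the member windows 16 regions were specific to SKBR3 and 18 to MDA-MB-453, of 89, beside 14.1% and 10.5% of all regions. The SKBR3 regions were 9 at EGFR, 2 at EGF, 2 at HBEGF and 1 each at ERBB3, EREG and TGFA. Of the HBEGF regions, that 43.7 kb upstream was nearest to a start of ANKHD1. The MDA-MB-453 regions were 15 at ERBB4, 2 at BTC and 1 at NRG1. Long genes hold more regions, so these counts weigh EGFR and ERBB4 heavily.

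The 5 SKBR3 regions that ranked highest were at EREG, EGFR and ERBB3. Rank is the percentile of a peak's score among all peaks of its own list, with 100 as the top. The region in the EREG intron (chr4:74373769-74376991, its near edge 8.62 kb downstream of the start) stood at the 80.1st and 81.6th percentile in the untreated lists and at the 88.0th and 95.8th with TWEAK. EREG had no peak at any start, so this intronic region was its main mark. Within the EGFR introns, chr7:55061321-55066845 stood at 67.8 and 63.9 untreated and at 85.5 and 94.0 with TWEAK. The region chr7:55024243-55034541, 10299 bp wide, stood at 72.5 and 75.9 untreated and at 83.1 and 79.6 with TWEAK. The third, chr7:55051133-55055299, stood at 59.3 and 62.4 untreated and at 78.7 and 87.6 with TWEAK. All 3 EGFR regions were higher in both TWEAK lists than in both untreated lists. They were picked by a mean percentile that includes the TWEAK lists, which favours such regions. Of the 10 EGFR regions held by all 4 SKBR3 lists, 5 ranked so, beside 20.9% of all regions held by all 4. The ERBB3 region, chr12:56053232-56056183, lay 20.6 kb upstream of the gene outside any coding gene and stood at 72.8 and 58.5 untreated and at 73.9 and 75.0 with TWEAK.

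In MDA-MB-453 the 5 highest ranked regions all lay in introns of ERBB4. They were chr2:211392763-211399466 (80.9, 79.6, 75.9 and 81.9, in the order untreated 1 and 2, TWEAK 1 and 2) and chr2:211956815-211959471 (76.4, 80.4, 81.9 and 76.6). The others were chr2:211472526-211474384 (67.0, 75.6, 74.4 and 69.9), chr2:211926405-211928624 (70.04, 75.6, 71.0 and 60.6) and chr2:211832536-211834442 (50.2, 59.3, 60.3 and 55.8). In all 5 the TWEAK and untreated lists overlapped. The 15 ERBB4 regions lay between 283.7 and 1166 kb downstream of the gene start, in a gene of 1163 kb. None of the 8 lists had a peak within 1 kb of a start of ERBB4. However, chr2:211956815-211959471 lay 1.29 kb from an internal annotated start of ERBB4, and chr2:211953985-211955598 lay 5.16 kb from an annotated start. The 9 EGFR regions of SKBR3 lay between 5.23 and 233.3 kb downstream of the start, and there the start itself carried a peak in all 4 lists.

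**Figure D2:**
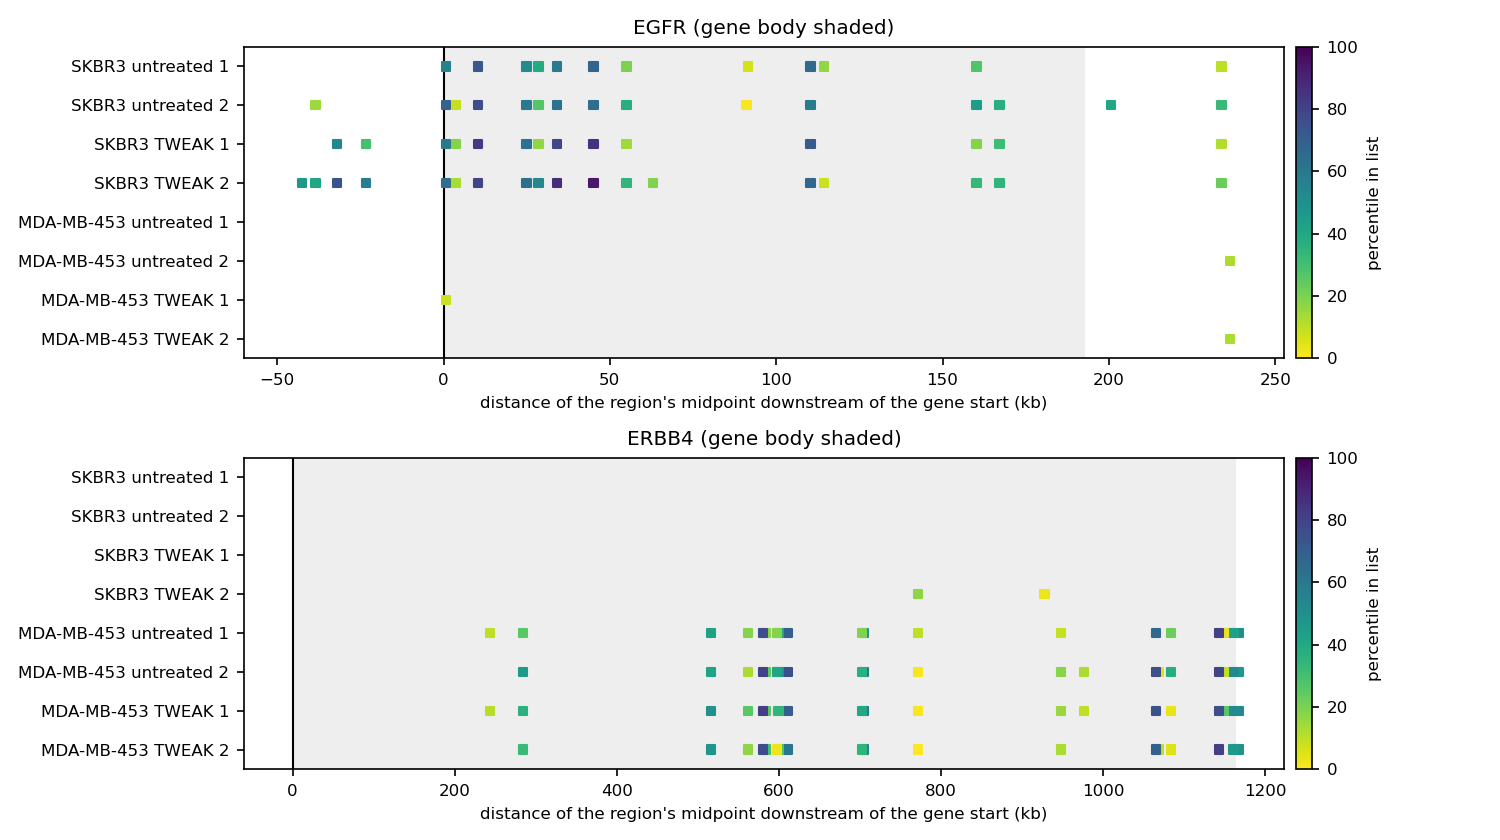
Regions of the EGFR and ERBB4 windows in each list, by the distance (kb) of the region's midpoint downstream of the gene start, coloured by percentile in the list, with the gene body shaded. SKBR3 lists fill the EGFR panel, mostly from the start onward, and MDA-MB-453 lists fill the ERBB4 panel from 243.2 kb downstream, with no region at the start.

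The next question was whether the promoters differed. A peak within 1 kb of an annotated start was present in all 8 lists for ERBB3, AREG and BTC, and in no list for ERBB4, NRG1 and EREG. EGFR had such a peak in 4 SKBR3 lists and 1 MDA-MB-453 list, and EGF in 4 and 2. The 2 EGF peaks of MDA-MB-453 lay at an internal start, at the 5.90th and 6.92nd percentile. Over the canonical EGF start, 4 SKBR3 and 0 MDA-MB-453 lists had a peak. HBEGF had one in 0 SKBR3 lists and 1 MDA-MB-453 list, and TGFA in 0 and 3. The TGFA promoter peaks ranked low, at the 18.4th, 17.7th and 8.43rd percentile, and the lone HBEGF peak at the 1.116th.

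AREG, whose product amphiregulin binds EGFR, had the largest promoter difference among the 3 genes marked in all 8 lists. Its peak stood at the 39.1st, 53.5th, 28.0th and 43.7th percentile in SKBR3 and at the 93.2nd, 94.1st, 93.3rd and 93.6th in MDA-MB-453. The difference, SKBR3 minus MDA-MB-453, was -52.5 percentile points, with means of 41.1 ± 10.6 (SD, n = 4) and 93.6 ± 0.394 (SD, n = 4). The peak was 607, 531, 551 and 277 bp wide in SKBR3 and 1422, 1363, 1370 and 1456 bp wide in MDA-MB-453. Its fold enrichment was 2.95, 4.06, 2.87 and 3.19 in SKBR3 and 20.5, 20.2, 18.7 and 17.8 in MDA-MB-453. So rank, width and enrichment were all higher in each MDA-MB-453 list than in any SKBR3 list, and 1 SKBR3 peak did not reach the canonical start.

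The BTC promoter, of the gene for betacellulin, went the other way, with percentiles of 80.2, 79.9, 74.9 and 79.7 in SKBR3 and 69.8, 73.5, 73.9 and 61.5 in MDA-MB-453. The lowest SKBR3 and the highest MDA-MB-453 list were close, at 74.9 and 73.9, and the groups overlapped when ranked by fold enrichment or in lists of equal size. Its width was 4083, 3585, 3684 and 3535 bp against 1140, 1088, 981 and 1248 bp. The ERBB3 promoter overlapped between the lines, at 85.1, 89.7, 87.6 and 92.4 in SKBR3 and 90.5, 95.4, 95.7 and 95.6 in MDA-MB-453 (exact permutation p = 0.0571, adjusted p = 0.0874). In lists of equal size the ERBB3 promoter did separate, with a difference of -8.55 points. Thus 1 of 3 promoters ranked higher in SKBR3 and 1 of 3 in MDA-MB-453, beside 30.8% and 28.7% of the 10326 genes with a promoter peak in all lists. For AREG and BTC the exact permutation p was 0.0286 and the adjusted p 0.0481.

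The AREG promoter and a region 27.2 kb downstream of the AREG start (chr4:74472307-74475716, outside coding genes) differed in opposite directions. The downstream region stood at 60.4, 50.8, 71.7 and 69.2 in SKBR3 and at 15.04, 29.6, 21.1 and 12.8 in MDA-MB-453, a difference of 43.4 points (exact permutation p = 0.0286, adjusted p = 0.0465 over 17704 regions). The region beyond it, chr4:74478560-74482174, overlapped, at 71.7, 77.6, 73.6 and 74.3 against 71.8, 72.1, 72.9 and 68.2. The covered length of the AREG window, which overlapped between the lines, summed the widths of these regions and not their ranks. The promoter was wider in MDA-MB-453, while the widths of the region 27.2 kb downstream overlapped. That region covered 2.575, 2.06, 2.83 and 3.10 kb in SKBR3. In MDA-MB-453 it covered 2.12 and 2.07 kb untreated and 0.937 and 1.03 kb with TWEAK. These distal regions were named after their values were seen. Of the 12 regions of the member windows held by all 8 lists, 4 ranked higher in SKBR3 and 3 in MDA-MB-453, beside 35.3% and 26.2% of all such regions. Some of them lay at neighbouring genes. Those higher in SKBR3 include a region in an intron of IKZF4 and another at a start of PFDN1. Those higher in MDA-MB-453 include regions at starts of ESYT1.

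**Figure D3:**
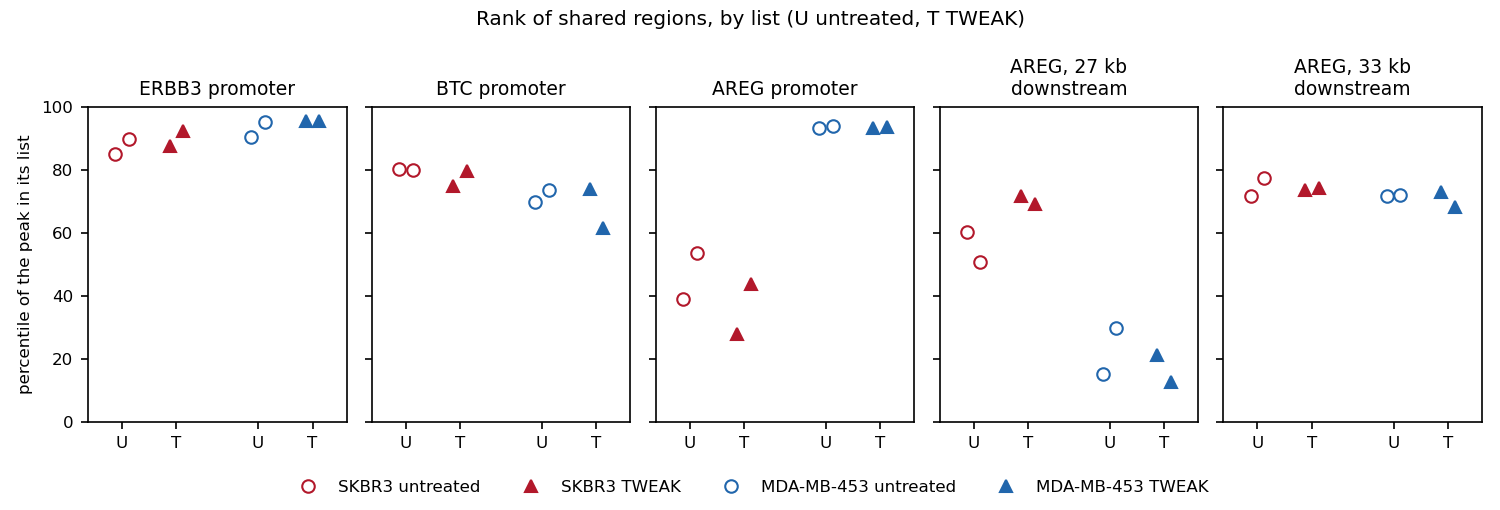
Percentile of the peak in its own list for 5 regions held by all 8 lists, with open circles for untreated and triangles for TWEAK lists, red for SKBR3 and blue for MDA-MB-453. At AREG the promoter is above 93 in MDA-MB-453 and at most 53.5 in SKBR3, while the region 27 kb downstream is at most 29.6 in MDA-MB-453 and at least 50.8 in SKBR3.

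The second comparison asked what TWEAK changed in SKBR3. Ligand genes and EGFR gained regions, and none of the 62 SKBR3 regions in the member windows was lost. Gained here means present with TWEAK in both replicates and absent from both untreated replicates, and lost is the converse. The gained regions were 8 of 62, beside 4.61% of all SKBR3 regions. The 0 lost compares with 1.40% of all regions. With 2 lists against 2 the smallest exact permutation p is 0.33, so no single region or gene can pass 0.05, and these counts are descriptions. Without the first TWEAK list 19 regions counted as gained, and without the second 9. Shares over all regions for these counts are not given here, so a change in the members cannot be told from one in the background.

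HBEGF, the gene for a membrane-anchored EGFR ligand, gained the region of highest rank, chr5:140327278-140330705, at the 64.6th and 88.7th percentile of the TWEAK lists. It lay outside coding genes, 15.9 kb downstream of the HBEGF start and 4.42 kb from the nearest annotated start of HBEGF. A second HBEGF region, chr5:140338033-140341375, in an intron, stood at 51.97 and 63.6. EGFR gained a pair of upstream regions, chr7:54985081-54988854 at 53.2 and 74.3 and chr7:54994706-54996689 at 29.6 and 58.0, which lay 30.2 and 22.3 kb before the start. In each of these 4 regions the second TWEAK list ranked the peak higher than the first.

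The other 4 gained regions were intronic. The TGFA region chr2:70528294-70530138 stood at 22.7 and 77.6, and the EGF region chr4:109946994-109948348 at 36.4 and 57.6. The BTC region chr4:74768816-74769487, within 1 kb of an internal start of BTC, stood at 22.7 and 22.8. The EREG region chr4:74371310-74372163 stood at 1.01 and 0.519, at the very bottom of both lists. Over the middle 300 bases of the 8 gained regions, AP-1 was found in 2 (EGF and BTC), AP-2 in 1 and NF-κB in 0, where all 2865 gained regions of SKBR3 held them in 17.1%, 8.69% and 13.2%.

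Covered length was compared in the same way. HBEGF went from 4.10 and 2.88 kb to 8.80 and 14.0 kb, with means of 3.49 ± 0.861 and 11.4 ± 3.66 kb (SD, n = 2 each), or 3.27-fold. The 14.0 kb include regions of 0.244, 1.16 and 1.46 kb in introns of the neighbour PFDN1, which no other SKBR3 list held. TGFA, another EGFR ligand, went from 0.995 and 0.746 kb to 2.40 and 3.30 kb, also 3.27-fold. AREG went from 6.21 and 5.77 kb to 6.54 and 6.63 kb, and EREG from 3.10 and 2.64 kb to 3.22 and 5.27 kb. In these 4 genes both TWEAK lists were above both untreated lists, and 0 genes were below, beside 19.9% and 14.5% of 17852 genes (exact permutation p = 0.33 each). For HBEGF and TGFA the groups also stayed apart with stricter peaks, lists of equal size and narrower windows, while for EREG they overlapped with stricter peaks and with equal lists, where the difference was 0.184 kb. For AREG the sign turned within 10 kb of the gene, where the difference was -0.155 kb. The median TWEAK difference was 1.02 kb over the 10 genes and 0.095 kb over all genes.

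The EGFR groups overlapped in covered length. Its second TWEAK list, at 45.9 kb, was the highest, but the first, at 27.1 kb, fell between the untreated lists at 22.2 and 30.4 kb. ERBB3, EGF and BTC also overlapped, ERBB4 had a peak only in the second TWEAK list, and NRG1 had none. The second TWEAK list held 11 of the 62 member regions that no other SKBR3 list held, against 4, 2 and 1 in the others, and over all regions it alone held 12.3%, against 3.67% to 7.87%. In lists cut to equal size 6 of the 8 regions were gained, for which no share over all regions is given here. Without the second TWEAK list the covered-length difference was 0.826 kb at EGFR, against 10.2 kb with it. At EREG it was 0.352 against 1.375 kb, at HBEGF 5.32 against 7.90 kb and at TGFA 1.53 against 1.98 kb. With 1 TWEAK list left these values carry no test, and the part of the second list was not tested.

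Regions present in all 4 SKBR3 lists were compared by rank. Of 31 such regions, 13 ranked higher in both TWEAK lists than in both untreated lists and 2 ranked lower, beside 20.9% and 17.4% of all such regions. The 13 were 5 at EGFR, 2 at ERBB3, 2 at EGF and 1 each at AREG, EREG, HBEGF and TGFA. TGFA had the intronic region 28.8 kb downstream of its start at 56.2 and 47.7 untreated and at 72.9 and 90.6 with TWEAK. HBEGF had the region 22.6 kb downstream at 22.4 and 20.6 untreated and at 41.7 and 58.5 with TWEAK. In lists of equal size 9 ranked higher and 3 lower, for which no share over all regions is given here. The regions compared by rank were described after their values were seen.

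**Figure D4:**
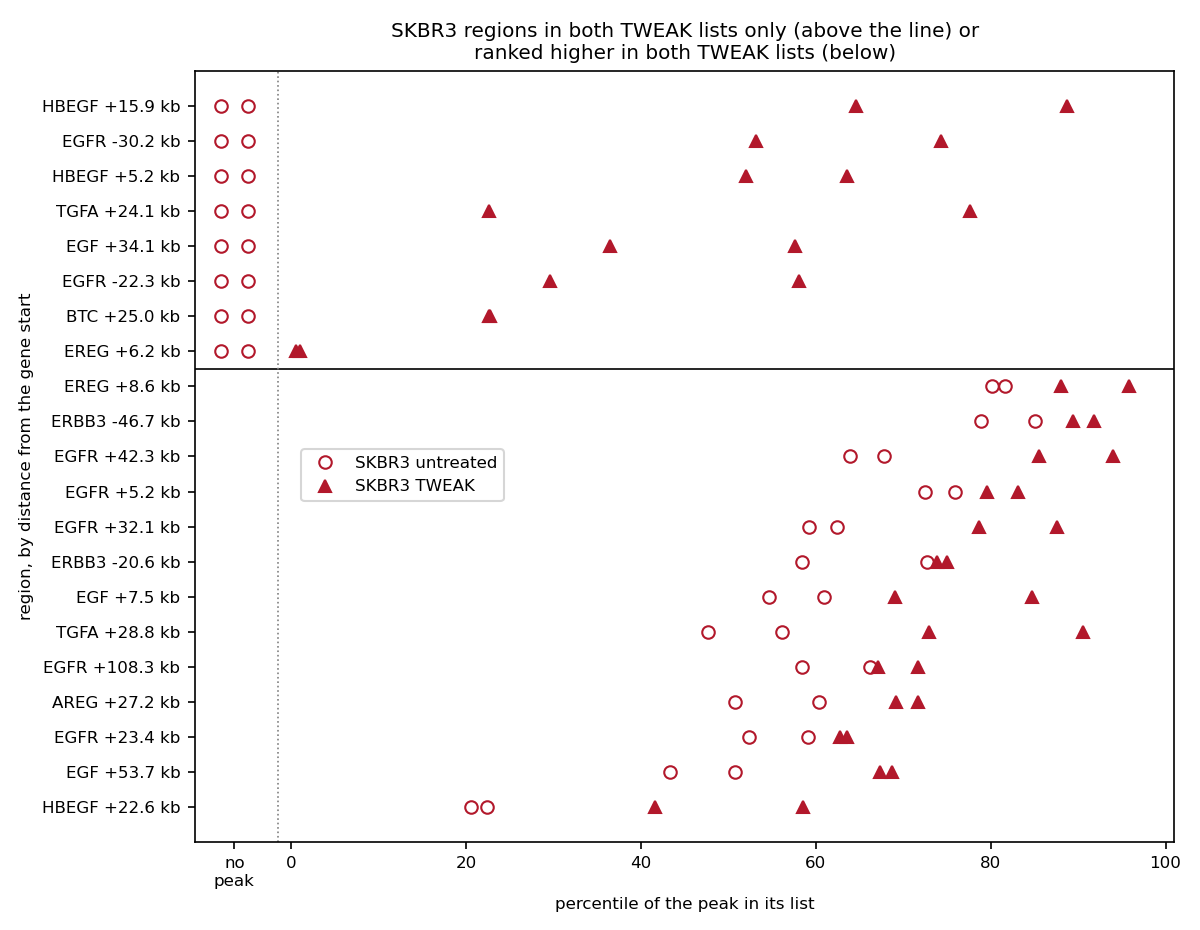
SKBR3 regions found in both TWEAK lists only (above the line) and regions of all 4 lists that ranked higher in both TWEAK lists (below it), by gene and distance from the gene start, with the percentile in each list on the x axis. Circles are untreated and triangles TWEAK lists, and untreated lists without a peak stand left of the dotted line. The HBEGF region at 15.9 kb reaches 64.6 and 88.7 with TWEAK, and the EREG region at 6.2 kb stays near 1.

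Promoters were few. Of the 5 members with a promoter peak in all 4 SKBR3 lists, EGF ranked higher with TWEAK, at 67.3 and 68.7 against 63.3 and 59.4, and BTC ranked lower, at 74.9 and 79.7 against 80.2 and 79.9. The EGF value of 67.3 came from a region at an internal start, 53.7 kb downstream of the gene start. The region at the EGF gene start overlapped, at 63.3 and 59.4 untreated and at 62.7 and 68.7 with TWEAK. Across all genes with such a peak, 9.95% ranked higher and 24.9% lower. EGFR, ERBB3 and AREG overlapped. When only peaks over the canonical start were used, EGF no longer separated. No SKBR3 list had a promoter peak at HBEGF, TGFA or EREG, so every region gained at those ligand genes lay over 1 kb from their starts.

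In MDA-MB-453 no region of these genes was gained or lost with TWEAK. The counts were 0 and 0 of 48, beside 1.33% and 1.30% of all MDA-MB-453 regions. Of 32 regions in all 4 lists, 4 ranked higher with TWEAK and 6 lower, beside 20.6% and 17.9%. EGFR covered length was higher in both TWEAK lists (0.538 and 0.769 kb against 0 and 0.277 kb) and AREG lower (5.82 and 5.74 kb against 6.99 and 6.99 kb), so 1 gene was higher and 1 lower, beside 19.5% and 16.7% of 17622 genes (exact permutation p = 0.33 each). Both calls were lost within 10 kb of the gene. The ERBB3 promoter ranked higher with TWEAK, at 95.7 and 95.6 against 90.5 and 95.4, and 0 of 3 promoters ranked lower, beside 26.0% and 12.6% of all genes.

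Whether TWEAK acted differently in the 2 lines was tested as the difference of the TWEAK differences, by an exact permutation test over 36 relabellings whose smallest p is 0.0556. HBEGF differed by 7.90 kb in SKBR3 and by 0.131 kb in MDA-MB-453 (exact permutation p = 0.222). TGFA differed by 1.98 and 0.060 kb (exact permutation p = 0.222). For EGFR, at 10.2 and 0.515 kb, the exact permutation p was 0.667. Without the second SKBR3 TWEAK list the EGFR difference in SKBR3 was 0.826 kb. No gene could pass 0.05 in this design, so a difference between the lines in the response was not shown.

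Other genes of the pathway were counted as a list of 19 that holds ERBB2, further ligands, the sheddases, adaptors and feedback inhibitors. By covered length 10 were higher in SKBR3, 5 in MDA-MB-453 and 4 overlapped, where all genes gave 43.9% and 24.6%. The highest difference was at ERBB2 itself, with 99.4 ± 10.2 kb in SKBR3 and 34.1 ± 1.85 kb in MDA-MB-453 (SD, n = 4 each), and the lowest at GRB2, an adaptor between receptors and RAS, with 18.7 ± 2.48 and 56.7 ± 2.44 kb. With TWEAK, 2 were higher and 5 lower in SKBR3, where all genes gave 19.9% and 14.5%. In MDA-MB-453 9 were higher and 3 lower, where all genes gave 19.5% and 16.7%. The ERBB2 and GRB7 windows overlap, and both genes are among these 9 and among the 10 higher in SKBR3. Peaks that they share therefore count more than once. The largest TWEAK difference in SKBR3 was at ERRFI1, a feedback inhibitor of EGFR, from 29.3 and 26.96 kb to 41.7 and 45.2 kb, and the lowest value was at ERBB2, where the groups overlapped. In the windows of the list 3 regions were gained and 2 lost of 164 in SKBR3, where all regions gave 4.61% and 1.40%. In MDA-MB-453 0 were gained and 2 lost of 131, where all regions gave 1.33% and 1.30%.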

How the data were processed

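H3K27ac ChIP-seq was deposited as 8 peak lists, 4 from SKBR3 and 4 from MDA-MB-453, with 2 untreated and 2 TWEAK lists each. Per the submitters' processing notes and the study's methods, the authors trimmed reads with Trimmomatic, aligned them to hg38 with Bowtie2, called peaks with MACS2 with the input signal subtracted, and removed blacklisted regions with bedtools. deepTools was also named. Calling options and tool versions are not given in the sources used here. In the files the authors deposited, each peak has an integer score, a fold enrichment at the summit, and −log10 p and −log10 q values, all computed by MACS2. The score is 10 times −log10 q rounded down for nearly all peaks, as checked on the files. The files hold no read counts, so depth is unknown and no interval for counting error is given. The 2 inputs were not analysed here.

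Peaks were intersected with GENCODE release 44 genes and 50 kb on each side. Covered length, presence, width, percentile of the score within each list, and regions merged from overlapping peaks were computed for all protein-coding genes or all regions. Means of 4 lists against 4 were compared by exact two-sided permutation tests with Benjamini-Hochberg adjustment over all genes or regions, and TWEAK groups by whether 2 lists against 2 overlapped. A promoter peak lay within 1 kb of an annotated start. The 10 genes were all named, with their promoter regions, every region gained or lost with TWEAK, the 5 line-specific regions of highest mean percentile in each line, and the highest and lowest pathway genes. The members were picked by name, but they, the lists of markers and pathway genes and these rules were chosen with earlier results of these data known. The ranks of regions in all 4 or all 8 lists were added after the data were seen. The study's methods describe cell-line ChIP-seq as done in biological replicates, while the labels do not say which lists came from which culture, and p-values measure the spread between these lists. Motifs were sought on both strands in the middle 300 bases of each region, and promoters were RefSeq sequences for GRCh38.p14, found for 8 of the 10 genes. The counting was tested on simulated data. Python 3.11.15, numpy 2.4.6, pandas 2.3.3 and matplotlib 3.10.9 were used. Alternatives were a stricter q (under 1e-05), lists of equal size, narrower windows, other merging and overlap rules, ranking by fold or −log10 q, the canonical start, a replicate block and leaving out each list. Ranking by −log10 q nearly repeats the main rank, since the score is made from −log10 q. A marker gene and some sequences are not reported here.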

Additional observations from a re-analysis of the deposited data

Results flagged for a closer look

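The TWEAK difference in covered length at AREG was 0.601 kb in SKBR3 and -1.21 kb in MDA-MB-453. The difference between the lines was 1.81 kb, and it was singled out because both SKBR3 lists moved one way and both MDA-MB-453 lists the opposite way. The exact two-sided permutation p was 0.0556, the smallest that 36 relabellings allow, so the design could not pass 0.05. Within 10 kb of the gene the differences were -0.155 and 0.0205 kb, each with the opposite sign. The region 27.2 kb downstream of the start went from 2.12 and 2.07 kb untreated to 0.937 and 1.03 kb with TWEAK in MDA-MB-453. In SKBR3 it went from 2.575 and 2.06 kb to 2.83 and 3.10 kb.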

How the results depend on the processing

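Of the counts recomputed under each alternative, 182 stayed within 1.5 times the main count and 69 did not. For all of these the cause was not tested. They include counts ranked by −log10 q, which nearly repeats the main rank. Between-line counts with a list left out, which could hardly fall, are also included. Shares over all genes or regions under each alternative are not given here, except for motifs. The counts below therefore do not tell a change in the members from one in the background. No count over 2 lists against 2 can pass a test, depth is unknown, and the second SKBR3 TWEAK list was the longest. With q under 1e-05, regions specific to SKBR3 numbered 8 and to MDA-MB-453 10, gained SKBR3 regions 4, lost MDA-MB-453 regions 1, and genes with higher or lower covered length with TWEAK in MDA-MB-453 0 and 0. Within 10 kb of the genes those last counts were also 0 and 0, 1 region of all 8 lists ranked higher in SKBR3, and 3 MDA-MB-453 regions ranked lower with TWEAK. In the gene body alone they were 0 and 0, and 3 genes had more covered length in SKBR3. The AREG difference with TWEAK reversed within 10 kb (-0.155 kb in SKBR3, 0.0205 kb in MDA-MB-453) and in the gene body (-0.0775 and 0.008 kb). Ranked by fold, 0 promoters were higher in SKBR3, 2 regions of all 8 lists were higher in SKBR3, and with TWEAK in MDA-MB-453 0 promoters were higher and 1 lower. With peaks over the canonical start, 0 promoters were higher in MDA-MB-453, where AREG could not be compared, and 0 were higher with TWEAK in SKBR3. In lists of equal size, 0 promoters were higher in SKBR3, 2 higher in MDA-MB-453, and 2 lower with TWEAK in SKBR3. With peaks required over 50% of a region, 5 SKBR3 regions were gained, and in MDA-MB-453 1 was gained and 1 lost. With peaks up to 1 kb apart merged, 1 SKBR3 region was lost. Over 1000 bases, AP-1 was found in 27 and AP-2 in 20 of the 89 regions.

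No label ties lists of equal replicate number, and the main calls leave the lists unpaired. The correlation of replicate differences was 0.465 between the untreated and TWEAK groups of SKBR3. For the other pairs of groups it was -0.0355 to -0.0053. In SKBR3, lists of equal number thus shared part of their difference, and the reason was not tested. With the replicate block, 6 genes had more covered length with TWEAK in SKBR3, with EGFR (10.2 kb) and ERBB3 (0.171 kb) added to the 4, and 2 in MDA-MB-453, with NRG1 (0.148 kb) added. In addition, 2 promoters were higher in MDA-MB-453, and 2 were higher and 2 lower with TWEAK in SKBR3. The block also gave 7 SKBR3 regions ranked lower and 7 MDA-MB-453 regions ranked higher with TWEAK.

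Leaving out 1 list at a time leaves 1 list in a TWEAK group, which separates more easily by construction, and such values carry no test. In this way, gained SKBR3 regions ranged from 8 to 19, the highest without TWEAK replicate 1, and lost ones from 0 to 4. In MDA-MB-453 gained regions ranged from 0 to 3 and lost from 1 to 2. Genes with higher covered length with TWEAK ranged from 5 to 8 in SKBR3 (8 without TWEAK replicate 1) and 2 to 4 in MDA-MB-453, and lower from 0 to 1 and 1 to 4. Between the lines, groups already apart stay apart when a list is left out, so these counts could hardly fall and are no check. Genes ranged from 5 to 5 for SKBR3 and 2 to 2 for MDA-MB-453, specific regions from 16 to 18 and 18 to 20, promoters from 1 to 1 and 1 to 2, and regions of all 8 lists from 4 to 5 and 3 to 4. With TWEAK, promoters ranked higher ranged from 1 to 3 in SKBR3 and 1 to 2 in MDA-MB-453, and lower from 1 to 3 and 0 to 1. Regions ranked higher with TWEAK ranged from 13 to 18 in SKBR3 and 6 to 18 in MDA-MB-453, and lower from 3 to 10 and 7 to 15.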
